A study of Mus musculus with 22 samples.

Results

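Among mouse lymphomas made by deleting p53 in B lineage cells, 6 primary tumours with a pre-B-like profile were compared: 3 carried a cyclin D2 (Ccnd2) transgene and 3 did not. They were chosen by a measured value. A library was kept when its tumour was a primary labelled non-MCL (not resembling mantle cell lymphoma) and when Vpreb1, a component of the surrogate light chain of pre-B cells, reached 100 CPM, counts scaled to a common library total with no further normalization (unscaled CPM). The rule kept 6 of the 22 libraries, from 6 of 15 mice; 10 libraries, from 9 mice, were non-MCL primaries. The comparison asks what differs with the transgene among tumours matched for stage by Vpreb1 alone. Other stage genes, such as Igkc and Kit, still varied widely among them.

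All 6 mice were of a mixed 129/C57Bl6 background and shared floxed p53 alleles (p53 fl/fl) and 1 Mb1Cre allele (tg/+). Mb1 is the Cd79a promoter, which drives Cre recombinase from early in the B lineage, so by design p53 is deleted there in both groups. No tumour designed to keep p53 enters the comparison. The deletion was not checked in these tumours. The Ccnd2 tumours, TP8, TP15 and oTP14, came from mice that were also R26-Ccnd2 tg/tg, with the transgene in the Rosa26 locus on both chromosomes. The p53-only tumours, oTP9, oTP11 and oTP17, lacked it. TP8 and oTP9 were mediastinal lymphomas, TP15 and oTP14 came from spleen, oTP11 was a thymoma, and oTP17 was given only as a lymphoma. Each tumour was a separate mouse. The labels give no age or sex. The TP and oTP at the start of the names are the submitters', with no meaning stated: 2 of 3 Ccnd2 tumours are TP, and 3 of 3 p53-only tumours are oTP. Prefix and genotype therefore nearly coincide.

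Pre-B cells have a rearranged immunoglobulin heavy chain but no light chain yet. Vpreb1 and Igll1 (lambda5) stand in for the light chain and form the pre-B cell receptor, which signals through Cd79a, Cd79b, Syk and Blnk and, with interleukin 7, drives a burst of division before the light chain genes are rearranged by Rag1 and Rag2. Cyclin D2 partners Cdk4 and Cdk6, which phosphorylate the retinoblastoma protein and release E2F factors, so that a cell passes from G1 into DNA synthesis. In the B lineage, cyclin D2 and cyclin D3 are the main D cyclins, and cyclin D3 has a known role in pre-B cell expansion.

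The transgene lies in the Rosa26 locus, whose own RNA is counted separately from the cyclin. Gt(ROSA)26Sor is the long noncoding RNA that the Rosa26 promoter makes in most cells. It lies on chromosome 6 at 113067428 to 113077333, minus strand, GRCm38, where it is annotated as antisense and its 3′ end overlaps that of Thumpd3. Rosa26 constructs are commonly placed in its intron 1, downstream of exon 1. The sequence below joins exon 1 (113077068 to 113077210, lower case, 143 bases) to the part of exon 2 shared by all 4 annotated transcripts (113071294 to 113071435, capitals, 142 bases). It is printed to show the start of the natural transcript and the exons on either side of that intron. The counts are 3′ tags of the gene as a whole and do not measure this splice. An intron of 5632 bases separates the exons in the genome. The labels do not give the insertion point.
Gt(ROSA)26Sor exons 1 and 2, from the GENCODE M21 transcripts: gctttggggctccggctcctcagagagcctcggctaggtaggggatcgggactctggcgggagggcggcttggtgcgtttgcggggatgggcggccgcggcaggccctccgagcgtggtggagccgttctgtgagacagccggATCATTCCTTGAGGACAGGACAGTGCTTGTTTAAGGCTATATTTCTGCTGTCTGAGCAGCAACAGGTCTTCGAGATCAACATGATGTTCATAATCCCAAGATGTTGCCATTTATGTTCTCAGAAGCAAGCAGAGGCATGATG

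Library totals of the 6 tumours ran from 2693399 counts (TP8) to 8146613 (oTP14), the range of the whole series. The 3 p53-only libraries were much alike, with Spearman correlations of log2 CPM across genes of 0.912 to 0.934. The Ccnd2 libraries were less so, at 0.787 to 0.832. TP15 stood furthest from the p53-only libraries, at 0.740 to 0.782, against 0.838 to 0.867 for TP8 and 0.851 to 0.873 for oTP14. Every pair of these libraries differed by far more than counting error, with a chi-square of at least 28.88 per degree of freedom.

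Vpreb1, which chose the tumours, stood at 5231 unscaled CPM in TP8, 5691 in TP15, 2424 in oTP14, 5132 in oTP9, 458 in oTP11 and 2879 in oTP17. The lowest member was oTP11. The 4 p53-only libraries outside the rule had 2.02 to 5.45, so nothing lay near the threshold of 100. Other pre-B genes, given as a description, were high in all 6 tumours as well. Igll1, the partner of Vpreb1, was at 1220, 1179 and 394 unscaled CPM in TP8, TP15 and oTP14 and at 1452, 265 and 788 in oTP9, oTP11 and oTP17. Rag1, a subunit of the recombinase, was at 169, 204 and 53.4 against 135, 89.4 and 360. Il7r, the interleukin 7 receptor chain, was at 545, 1052 and 329 against 668, 588 and 422. In each of these genes the genotypes overlapped, and all 6 tumours lay above the 4 libraries left out.

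Gt(ROSA)26Sor had the lowest p of the 11743 genes tested. It gave 1, 0 and 6 counts in TP8, TP15 and oTP14 and 176, 188 and 181 counts in oTP9, oTP11 and oTP17. The groups were far apart: 7 counts in all against 545, a ratio of 80.0 once each sum is divided by the summed library totals of its group (exact 95% interval 38.6 to 200, counting error only). A count of 0 in TP15 allows up to 0.899 unscaled CPM. On the TMM-scaled CPM used for every comparison (CPM after edgeR's trimmed-mean scaling) the means were 0.384 ± 0.377 in Ccnd2 and 39.3 ± 6.60 in p53-only tumours (SD, n = 3 each). The log2 difference was -6.35 (SE 0.74) with an adjusted p of 0.165 by edgeR's quasi-likelihood test with Benjamini-Hochberg adjustment, which misses the threshold of 0.05. An exact two-sided permutation test of 3 against 3 gave p = 0.1, the smallest it can give.

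The call for Gt(ROSA)26Sor depended on the test, while its log2 difference stayed between -7.57 and -5.65 in every fit run. DESeq2 gave an adjusted p of 5.11e-12, edgeR without the low-count filter 2.98e-12, and edgeR on the oTP libraries alone, with oTP14 as the only Ccnd2 tumour, an adjusted p of 0.0454 and a log2 difference of -5.67. That fit assumes that a lone library varies as the others do. Without TP15 the log2 difference was -5.90, with an edgeR adjusted p of 0.0824. With the prefix as a covariate it was -5.65, with an edgeR adjusted p of 0.315. By prefix, the RNA was low in TP8, TP15 and oTP14, and the p53-only TP5 and TP21, outside the rule, had 38.8 and 16.7 unscaled CPM; the part of the prefix was not tested. The RNA did not follow the genotype label everywhere. The p53-only TP25 was at 0 and the MCL-like TP20, which carries the transgene, was at 35.2, while the other MCL-like primaries had at most 1.05. The 6 MCL-like transplants, also labelled with the transgene, had 4.24 to 20.9, and the 2 non-MCL transplants at most 1.59.

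The nearest neighbours overlapped between genotypes. Thumpd3, whose protein belongs to a family of RNA-modifying enzymes, had 25.8, 30.6 and 18.7 TMM-scaled CPM in TP8, TP15 and oTP14 and 25.3, 37.3 and 35.9 in the p53-only tumours, with an edgeR adjusted p of 0.644. Setd5, a chromatin regulator, had 123, 194 and 62.0 against 91.0, 108 and 91.2. Of the 52 genes tested within 5 Mb on either side, 0 were higher and 5 lower in Ccnd2 tumours at an unadjusted p under 0.05 (among them Hnrnpf, Zfp422, 9530062K07Rik and Zfp239, named after their values were seen), and the median log2 difference was -0.10. Over all genes tested 8.3% were higher and 6.25% lower by that threshold.

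Ccnd2 itself was not uniformly high with the transgene. Its TMM-scaled CPM were 2091 in TP8, 573 in TP15 and 461 in oTP14, against 5.27 in oTP9, 12.2 in oTP11 and 846 in oTP17. All 3 Ccnd2 tumours and oTP17 were high, oTP9 and oTP11 were low, and oTP17 lay above TP15 and oTP14, so the groups overlapped. The means were 1042 ± 910 and 288 ± 483 (SD, n = 3 each), a log2 difference of 1.85 (SE 1.56, edgeR adjusted p 0.592). Without oTP17 the log2 difference was 6.87 (edgeR adjusted p 0.285), without TP8 it was 0.83, and among the oTP libraries alone it was 0.68. The 4 p53-only libraries outside the rule were at 175 to 1028 unscaled CPM, so low Ccnd2 in oTP9 and oTP11 was not a feature of all p53-only tumours. Whether reads of the transgene's RNA are counted under Ccnd2 was not tested.

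**Figure D1:**
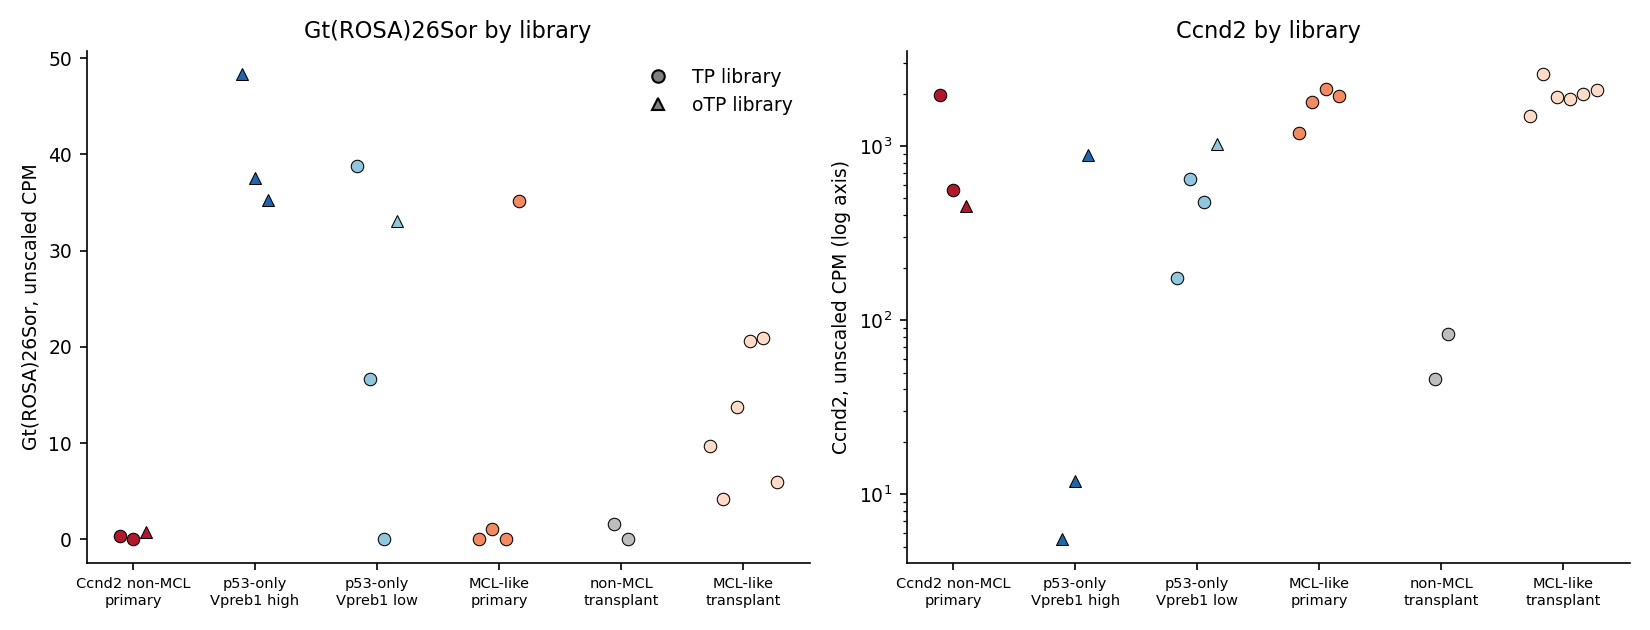
Unscaled CPM of Gt(ROSA)26Sor (left, linear axis) and Ccnd2 (right, log axis) in each of the 22 libraries, with circles for TP and triangles for oTP names; each point is a library. The Ccnd2 non-MCL primaries sit at 0 to 0.737 for Gt(ROSA)26Sor against 35.2 to 48.3 in the p53-only tumours with high Vpreb1, whereas for Ccnd2 the triangle of oTP17, at 893, lies among the transgenic tumours.

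The other D cyclins and their kinases showed no separation. Ccnd3, the pre-B D cyclin, was at 599, 777 and 2132 TMM-scaled CPM in TP8, TP15 and oTP14 and at 803, 547 and 3359 in oTP9, oTP11 and oTP17. It was highest in oTP17 and oTP14 and overlapped between genotypes (edgeR adjusted p 0.821). Ccnd1, the D cyclin of most other tissues, stayed between 3.69 and 27.5. Cdk6 was at 240, 1179 and 706 against 327, 492 and 193, with a log2 difference of 1.07 (SE 0.60, edgeR adjusted p 0.428), or 0.48 without TP15, and overlapping groups. Of the 9 D cyclins, E cyclins and G1 kinases tested, 0 reached an unadjusted p under 0.05, against 14.6% of all genes. Ccne2, an E cyclin, came closest, at 41.7, 114 and 62.9 against 46.7, 30.8 and 31.9 (edgeR adjusted p 0.348), and its log2 difference was 0.52 without TP15.

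Trp53 was low throughout, at 5.57, 3.40 and 12.8 TMM-scaled CPM in TP8, TP15 and oTP14 and 12.9, 17.8 and 12.9 in the p53-only tumours. The labels do not say which exons are floxed, so a 3′ tag may lie outside the deleted part and does not check the deletion. Of 16 p53 target genes tested, 0 were higher and 2 lower in Ccnd2 tumours at an unadjusted p under 0.05: Ccng1, which encodes cyclin G1, at 41.7, 23.2 and 35.7 against 67.2, 72.2 and 94.9, and Btg2, an antiproliferative gene, at 103, 49.2 and 82.0 against 145, 149 and 140. In both genes the groups did not overlap, as in 21.6% of all genes, and neither passed the adjusted threshold (edgeR adjusted p 0.249 and 0.315). Over all genes tested, 8.3% were higher and 6.25% lower by the unadjusted threshold. Cdkn1a, the p21 inhibitor and the best-known target, was between 9.40 and 26 in the 6 tumours.

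Across all 11743 genes, 0 passed edgeR's quasi-likelihood test at an adjusted p under 0.05 (0%). At an unadjusted p under 0.05 there were 1709 genes (14.6%), 975 higher in Ccnd2 tumours (8.3%) and 734 lower (6.25%). The groups did not overlap in 2536 genes (21.6%), 1096 higher (9.33%) and 1440 lower (12.3%). The median log2 difference was 0.06. The direction split depended on scaling: 57.1% of the genes under an unadjusted p of 0.05 were higher with TMM scaling, 46.8% with library-size scaling and 47.0% with limma-voom. By the other tools, DESeq2 called 482 genes, 325 higher and 157 lower, all of them among the 1709, and edgeR without a low-count filter called 658.

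Single libraries moved these counts. Leaving out TP8 gave 7 calls, all higher in Ccnd2 tumours: Cldn13, Sptb, Pdzk1ip1, Rhd, Kel, Add2 and Tmcc2, of which Sptb, Rhd and Kel encode red-cell membrane proteins. Leaving out oTP14 gave 2 calls, Btf3 and mt-Nd3, both lower, and raised the unadjusted count to 2620 genes. The unadjusted count was 1095 without oTP9 and 1113 without oTP11. Without TP15 there were 0 calls and 1451 genes at an unadjusted p under 0.05. These genes were named after their values were seen.

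The 10 genes with the lowest p on the high side, among genes of ordinary symbol whose groups did not overlap, were not called. Cacnb4, a beta subunit of voltage-gated calcium channels, was at 13.5, 20.7 and 22.0 TMM-scaled CPM in TP8, TP15 and oTP14 and gave 1, 0 and 1 counts in oTP9, oTP11 and oTP17. The summed counts were 276 against 2, a ratio of 134 relative to the summed library totals (exact 95% interval 36.8 to 1114, counting error only), with an edgeR adjusted p of 0.165. Npr1, the receptor of atrial natriuretic peptide, had 150 counts against 3, a ratio of 48.6 on the same basis (16.3 to 238). Both genes were close to silent in the p53-only tumours and modestly expressed in all 3 Ccnd2 tumours.

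Others of the 10 were better expressed. Csf1r, the receptor of macrophage colony-stimulating factor, was at 172, 203 and 74.2 TMM-scaled CPM in TP8, TP15 and oTP14 against 13.2, 18.7 and 26.7, a log2 difference of 2.93 (SE 0.49). Lifr, the receptor of leukaemia inhibitory factor, was at 14.3, 22.9 and 22.1 against 1.85, 1.01 and 2.03. Ptpn22, a phosphatase that restrains antigen receptor signalling, was at 93.4, 45.2 and 80.4 against 9.76, 2.23 and 8.85, a log2 difference of 3.39 (SE 0.61). These 3 shared an edgeR adjusted p of 0.225. With all 6 p53-only mice in the fit, the difference of Lifr was -0.25. In that fit 9 of the 10 genes kept their direction, and the smallest difference was 0.06 in size. The p53-only libraries outside the rule had 4.43 to 90.1 unscaled CPM of Lifr, 43.6 to 498 of Csf1r and 16.7 to 206 of Ptpn22. In all 3 genes these ranges overlapped those of the Ccnd2 tumours.

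The remaining higher genes are of varied function. Gga2, an adaptor that sorts cargo at the trans-Golgi network, was the most abundant of the 10, at 150, 236 and 164 against 33.5, 36.1 and 47.2 (log2 difference 2.24, SE 0.35). Gda, guanine deaminase, was at 33.4, 68.7 and 98.5 against 5.54, 8.11 and 9.59. Gramd1b, which moves cholesterol between membranes, was at 54.1, 52.9 and 63.5 against 9.23, 17.6 and 11.2. Zcchc3, a nucleic acid binding protein, depended most on TP15: it was at 18.7, 109 and 17.1 against 0.264, 1.01 and 1.11, with a log2 difference of 5.83, and of 4.404 without TP15. Plekhm2, which links lysosomes to kinesin, was at 36.2, 36.8 and 94.2 against 10.02, 9.53 and 8.11. In the p53-only libraries outside the rule, Gga2 (77.2 to 178 unscaled CPM), Gda (10.6 to 84.7), Zcchc3 (2.72 to 29.4) and Plekhm2 (26.9 to 57.9) overlapped the Ccnd2 tumours. Gramd1b, at 15.5 to 44.3, stayed below them.

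Among the 10 lowest genes, Gt(ROSA)26Sor came first by p. Spinkl, a gene of the Kazal-type protease inhibitor family, was at 0, 1.86 and 0.628 TMM-scaled CPM in TP8, TP15 and oTP14 and at 56.7, 37.1 and 144 in the p53-only tumours, a log2 difference of -6.53 (SE 0.92). Fcrla, an intracellular Fc receptor-like protein of B cells, was at 13.5, 23.2 and 51.5 against 156, 318 and 238, a log2 difference of -3.00 (SE 0.55). Rpa3, the smallest subunit of the single-stranded DNA binding complex RPA, was at 4.37, 3.71 and 3.39 against 38.5, 23.7 and 18.6. All 3 were low in each Ccnd2 tumour and several times higher in each p53-only tumour. Their edgeR adjusted p was 0.225.

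The other low genes were expressed in both groups. Rps6ka3, the kinase RSK2 downstream of ERK, was at 27.0, 18.2 and 30.9 against 105, 87.2 and 117. Cdc42ep3, an effector of the GTPase Cdc42, was at 13.1, 7.73 and 20.6 against 98.6, 83.5 and 64.3. Senp3, which removes SUMO from nucleolar proteins, was at 20.3, 8.97 and 12.7 against 67.2, 65.7 and 72.4. Adprh, an ADP-ribosylarginine hydrolase, was the tightest, at 66.8, 69.9 and 73.6 against 248, 183 and 205 (log2 difference -1.60, SE 0.31), and Dnajb9, a chaperone of the endoplasmic reticulum, was at 5.57, 8.97 and 13.1 against 33.0, 64.3 and 46.8. The mitochondrial mt-Nd3, at 0.795, 0.928 and 8.16 against 111, 87.4 and 87.6, is taken up with the prefix.

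**Figure D2:**
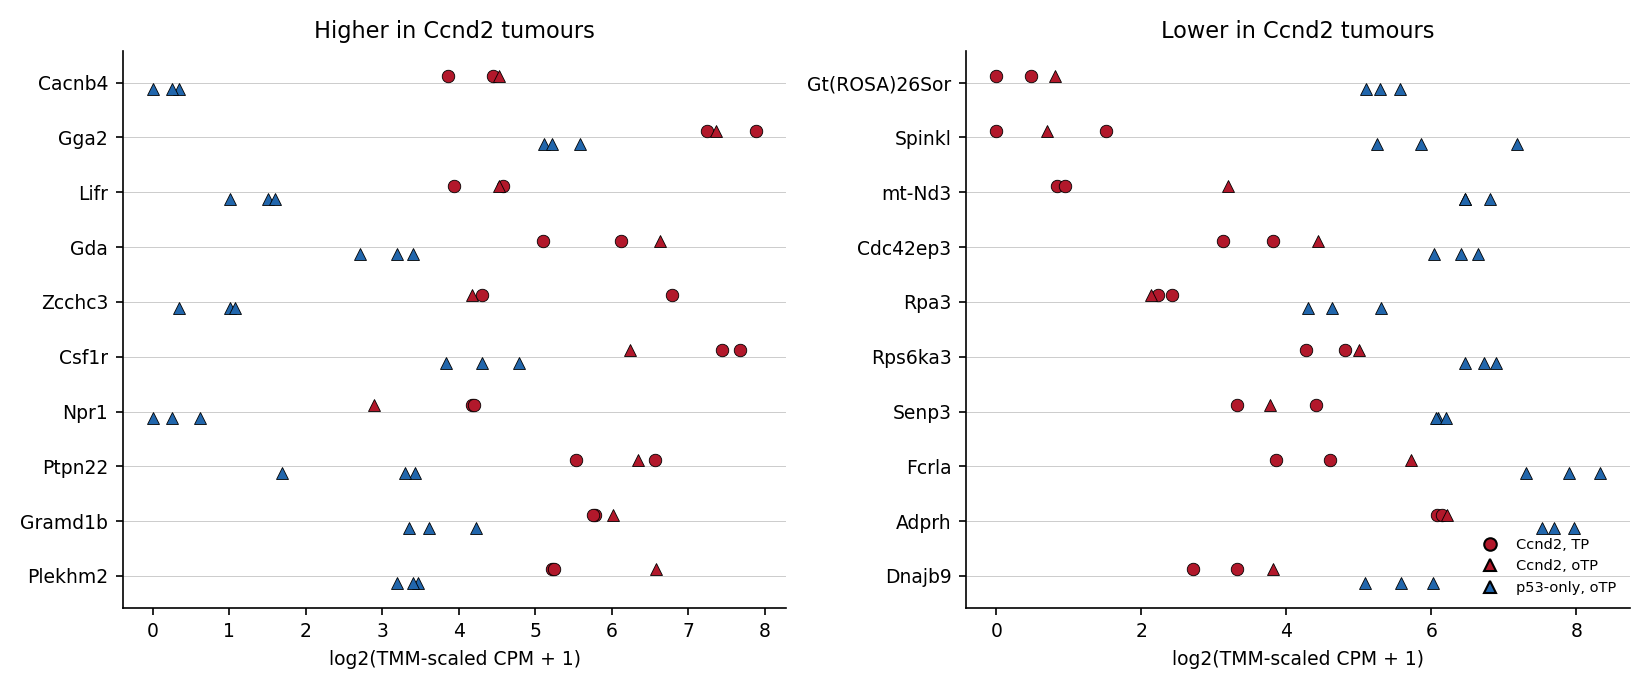
TMM-scaled CPM, as log2(value + 1), of the 10 genes with the lowest p in each direction, in the 3 Ccnd2 tumours (red; circles TP, triangle oTP14) and the 3 p53-only tumours (blue triangles, all oTP). In each row the red and blue points are apart, as the choice of genes without overlap requires; Adprh is the tightest of the lower genes and Gt(ROSA)26Sor and Spinkl the widest.

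Genes of DNA synthesis lay on both sides. Of 30 E2F-regulated replication genes tested, 2 were higher and 5 lower in Ccnd2 tumours at an unadjusted p under 0.05. By that threshold 8.3% of all genes were higher and 6.25% lower. The median log2 difference of the list was -0.27 against 0.06 for all genes. The higher genes were Lig1, the replicative DNA ligase, at 566, 1567 and 829 TMM-scaled CPM against 296, 424 and 450, and Tk1, thymidine kinase, at 133, 242 and 67.9 against 57.0, 85.0 and 61.9. The lower genes were Cdc45 and Mcm6 of the replicative helicase, Pcna, the sliding clamp, Rfc4 of its loader, and Uhrf1, which maintains DNA methylation. Cdc45 was at 47.7, 22.6 and 41.6 against 116, 113 and 89.6, a log2 difference of -1.51 (SE 0.39, edgeR adjusted p 0.225). Pcna was at 106, 81.0 and 121 against 225, 191 and 171. The groups did not overlap in Lig1 or in any of the 5 lower genes, nor in 21.6% of all genes.

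Of 24 mitotic genes tested, 3 were higher and 3 lower at the same unadjusted p, with a median of -0.27. Among all genes 8.3% were higher and 6.25% lower. Mki67, the proliferation antigen, was at 316, 372 and 239 against 201, 162 and 126, a log2 difference of 0.92 (SE 0.35, edgeR adjusted p 0.299), which was -0.12 with all 6 p53-only mice. Plk1, a mitotic kinase, was at 288, 408 and 432 against 207, 239 and 212. Cyclin A2 (Ccna2) was at 103, 40.5 and 129 against 213, 251 and 197, and Kif20a, a kinesin of cytokinesis, at 51.3, 24.1 and 39.7 against 91.2, 107 and 76.3 (edgeR adjusted p 0.250). Cenpe, a centromere kinesin, was on the high side with overlapping groups, and Aurkb, the kinase of the chromosomal passenger complex, on the low side. Over the whole lists more genes leaned lower than higher in Ccnd2 tumours. A positive log2 difference was found in 10 of 30 replication genes and 8 of 24 mitosis genes. The groups did not overlap in 2 higher and 8 lower replication genes and in 3 higher and 6 lower mitosis genes. Over all genes tested, 9.33% were higher and 12.3% lower without overlap. The summed unscaled CPM of the mitosis list were 5200 to 5912 in Ccnd2 and 6293 to 6695 in p53-only tumours. These sums carry no TMM scaling, which raised the values of oTP14 and lowered those of oTP17. Their separation therefore depends on the scaling.

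Inhibitors upstream of E2F held 2 genes on the low side of 9 tested and 0 on the high side at an unadjusted p under 0.05. By that threshold 8.3% of all genes were higher and 6.25% lower. Cdkn2c, the p18 inhibitor of Cdk4 and Cdk6, was at 27.8, 15.5 and 26.1 TMM-scaled CPM in TP8, TP15 and oTP14 against 78.8, 44.6 and 42.2, a log2 difference of -1.25 (SE 0.43, edgeR adjusted p 0.269). Rbl1, the pocket protein p107, was at 24.3, 40.5 and 32.5 against 78.6, 55.2 and 49.8. Neither gene overlapped between groups, which held for 21.6% of all genes. Cdkn2a, which encodes p16 and p19Arf, was abundant in all 6, from 419 to 883. Of 10 E2F and DP factors, 1 was higher, Tfdp2, at 124, 202 and 75.7 against 85.4, 51.5 and 65.1 (edgeR adjusted p 0.338), with overlapping groups and a log2 difference of 0.99, or 0.56 without TP15.

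The pre-B receptor and its signalling chain held 2 genes on the high side of 15 tested and 0 on the low side. Over all genes tested, 14.6% lay on either side at an unadjusted p under 0.05. Among the 2, Btk, the kinase downstream of the receptor, was at 95.8, 33.7 and 43.1 TMM-scaled CPM in TP8, TP15 and oTP14 and at 18.2, 25.1 and 20.5 in the p53-only tumours. Its groups did not overlap, and the edgeR adjusted p was 0.267. Vpreb2, the close copy of Vpreb1 whose reads could be split between them, was at 227 in TP8 and at 2.03 to 20.5 in the other 5. Vpreb3 was even, from 887 to 1504.

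Light chain genes varied widely among the 6 tumours. Igkc, the kappa light chain constant gene, was at 1947, 2293 and 1153 TMM-scaled CPM in TP8, TP15 and oTP14 and at 36.9, 152 and 4821 in oTP9, oTP11 and oTP17. The p53-only tumours held both the lowest and the highest value. Iglc1, a lambda constant gene with near-identical copies, was at 1183 in oTP17 and at 8.04 to 74.0 elsewhere, and Jchain, a gene of antibody-secreting cells, was at 294 in oTP17 and 6.36 to 13.9 elsewhere. Lower in Ccnd2 tumours on average, Jchain turned to a log2 difference of 0.11 without oTP17. oTP17 thus combined high Vpreb1 with the most Igkc and Iglc1. V segments, which a 3′-end assay reaches only in part, gave few counts: 1 to 80 per library for the heavy chain and 43 to 256 for kappa. Ighv4-1 held 68 of the 80 heavy chain V counts of oTP17 and Ighv9-3 held 29 of 39 in TP15, while Igkv1-35 led the kappa counts of TP15, oTP14 and oTP9.

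At the earlier end of the stage axis, Kit, the receptor of stem cell factor, was at 0.795, 62.2 and 24.0 against 2.37, 0.406 and 3.87, with TP15 and oTP14 high and TP8 among the p53-only tumours. Its log2 difference was 3.69 (SE 1.26, edgeR adjusted p 0.270), and 2.49 without TP15. Arpp21, a gene of early B progenitors, was at 98.6, 198 and 29.0 against 23.7, 18.9 and 54.9. These were the 2 higher of 17 progenitor genes tested, with 0 lower, against 14.6% of all genes in either direction. Dntt, the enzyme that adds bases at heavy chain joints and is switched off in pre-B cells, was at 0, 23.5 and 7.03 against 10.8, 1.42 and 4.42, and its log2 difference of 0.89 was -0.56 without TP15. Rag1 and Rag2 overlapped between genotypes, and of 13 recombination genes 1 was higher (Hmgb1) and 2 lower (Xrcc6 and Lig4). Lig4, the ligase that closes broken ends, was at 34.6, 17.6 and 55.3 against 105, 89.0 and 97.1, a log2 difference of -1.43 (SE 0.45, edgeR adjusted p 0.254).

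Mature B cell genes leaned to the high side, with a positive log2 difference in 14 of 18 tested and a median of 0.89 against 0.06 over all genes. At an unadjusted p under 0.05, Cd37, a tetraspanin, and Cxcr5, the receptor that leads B cells to follicles, were on the high side, and Fcrla on the low side. That threshold was passed by 14.6% of all genes. Cxcr5 was at 39.8 in TP8 and 15.8 in oTP14 but at 1.55 in TP15, below oTP17 at 2.40. Cd5, the surface marker of B1a cells, was too low to be tested: unscaled CPM were 0, 0.599 and 39.2 in TP8, TP15 and oTP14 and 0.275, 0.200 and 5.84 in the p53-only tumours. oTP14 stood alone. Of 10 MHC class II genes tested, 0 were under an unadjusted p of 0.05.

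Transcription factors of the B lineage passed the unadjusted threshold about as often as other genes. Ebf1 was at 2058, 3661 and 2219 TMM-scaled CPM against 2190 ± 1063 (SD, n = 3) in the p53-only tumours, and Pax5, which commits cells to the lineage, was at 563 ± 181 against 406 ± 147. Of 24 factors, 2 were higher and 1 lower at an unadjusted p under 0.05, where 14.6% of all genes lay. Pou2f2, the octamer factor Oct2, was at 217, 326 and 156 against 41.4, 63.9 and 85.9, a log2 difference of 1.87 (SE 0.43, edgeR adjusted p 0.225), with no overlap. Bach2, a repressor with a checkpoint role at the pre-B receptor, was at 256, 280 and 160 against 1068, 363 and 764 (log2 difference -1.66, SE 0.47, edgeR adjusted p 0.237), also with no overlap. Id2, an inhibitor of E proteins, was at 153, 58.1 and 124 against 33.2, 28.6 and 69.3. With all 6 p53-only mice the log2 difference of Pou2f2 was -0.06.

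Among survival genes, Bcl2 differed most between the groups. Bcl2, which blocks mitochondrial cell death, was at 47.7, 142 and 231 TMM-scaled CPM in TP8, TP15 and oTP14 and at 2.64, 10.5 and 38.7 in oTP9, oTP11 and oTP17. The lowest Ccnd2 tumour was just above the highest p53-only tumour. The log2 difference was 3.01 (SE 0.92, edgeR adjusted p 0.249), and it was 1.62 with all 6 p53-only mice. It was the 1 gene under an unadjusted p of 0.05 among 14 Bcl2 family genes, against 14.6% of all genes. Pim1, a Stat5-induced survival kinase, was at 579, 106 and 108 against 67.0, 40.1 and 71.0 (edgeR adjusted p 0.265). Bcl2 and Pim1 were the 2 higher of 16 genes of the interleukin 7 and Stat5 axis, and 0 were lower. That share is close to the share of all genes.

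Myc was on the other side, at 16.7, 5.57 and 47.2 against 77.5, 304 and 39.1. oTP14 lay above oTP17, so the groups overlapped. Its log2 difference of -2.58 (SE 0.92, edgeR adjusted p 0.285) was -1.29 without oTP11, the tumour with the highest value. Of 22 genes of the Myc family and its targets, Nop56, a nucleolar protein, was the 1 on the high side. Nop56 was at 140, 383 and 256 against 96.8, 114 and 73.7. Rrs1, a ribosome assembly factor, joined Myc on the low side. Over all genes tested, 8.3% were higher and 6.25% lower at an unadjusted p under 0.05. Among 24 ribosomal protein genes 0 were higher and 4 lower (among them Rpl10a, Rpl23 and Rps6). Rps6 was at 22.3, 2.16 and 32.2 against 171, 160 and 114, a log2 difference of -2.96 (SE 0.76, edgeR adjusted p 0.225).

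Interferon-response genes lay mostly on the high side. Of 20 listed, 15 passed the low-count filter, and all 15 had a positive log2 difference, with a median of 1.51 against 0.06 over all genes. A gene high in Ccnd2 tumours alone can pass this filter, so the signs are a description and not a test. Of the 15, only 2 were under an unadjusted p of 0.05 and 5 did not overlap, against 14.6% and 21.6% of all genes. Rsad2, the antiviral protein viperin, was at 23.1, 133 and 117 TMM-scaled CPM against 0.791, 6.69 and 9.40, a log2 difference of 3.99 (SE 0.91, edgeR adjusted p 0.225). Oasl1 was at 13.1, 11.4 and 3.64 against 1.05, 0.811 and 2.95. The summed unscaled CPM of the list were 424, 497 and 281 in TP8, TP15 and oTP14 and 89.8, 80.2 and 259 in oTP9, oTP11 and oTP17, so oTP17 came close to oTP14. Of 19 NF-kB targets, Malt1 and Icam1 were on the high side and Tnfaip3 on the low side, a share near the 14.6% of all genes. Malt1, a protease of antigen receptor signalling, was at 36.2, 59.1 and 46.5 against 17.7, 19.1 and 31.0 (edgeR adjusted p 0.297).

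Metabolic and homing genes gave short lists. At the unadjusted p under 0.05 used for them, 8.3% of all genes were higher and 6.25% lower. Of 19 glycolysis and hypoxia genes 2 were higher and 2 lower. Pfkl, the liver-type phosphofructokinase, was at 26.6, 64.3 and 38.9 against 14.5, 15.8 and 14.0 (edgeR adjusted p 0.234), and Aldoa, aldolase A, was also higher. Pgk1 and Gapdh, both glycolytic enzymes with many processed copies in the genome, were lower. Of 12 homing genes, Cxcr5 and Itga4, an integrin chain, were higher and 0 were lower. Around the endogenous Ccnd2 gene, 1 of 10 neighbours tested was higher (Dyrk4) and 1 lower (Kcna5, at 1.99, 11.1 and 2.14 against 65.9, 15.6 and 18.6).

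**Figure D3:**
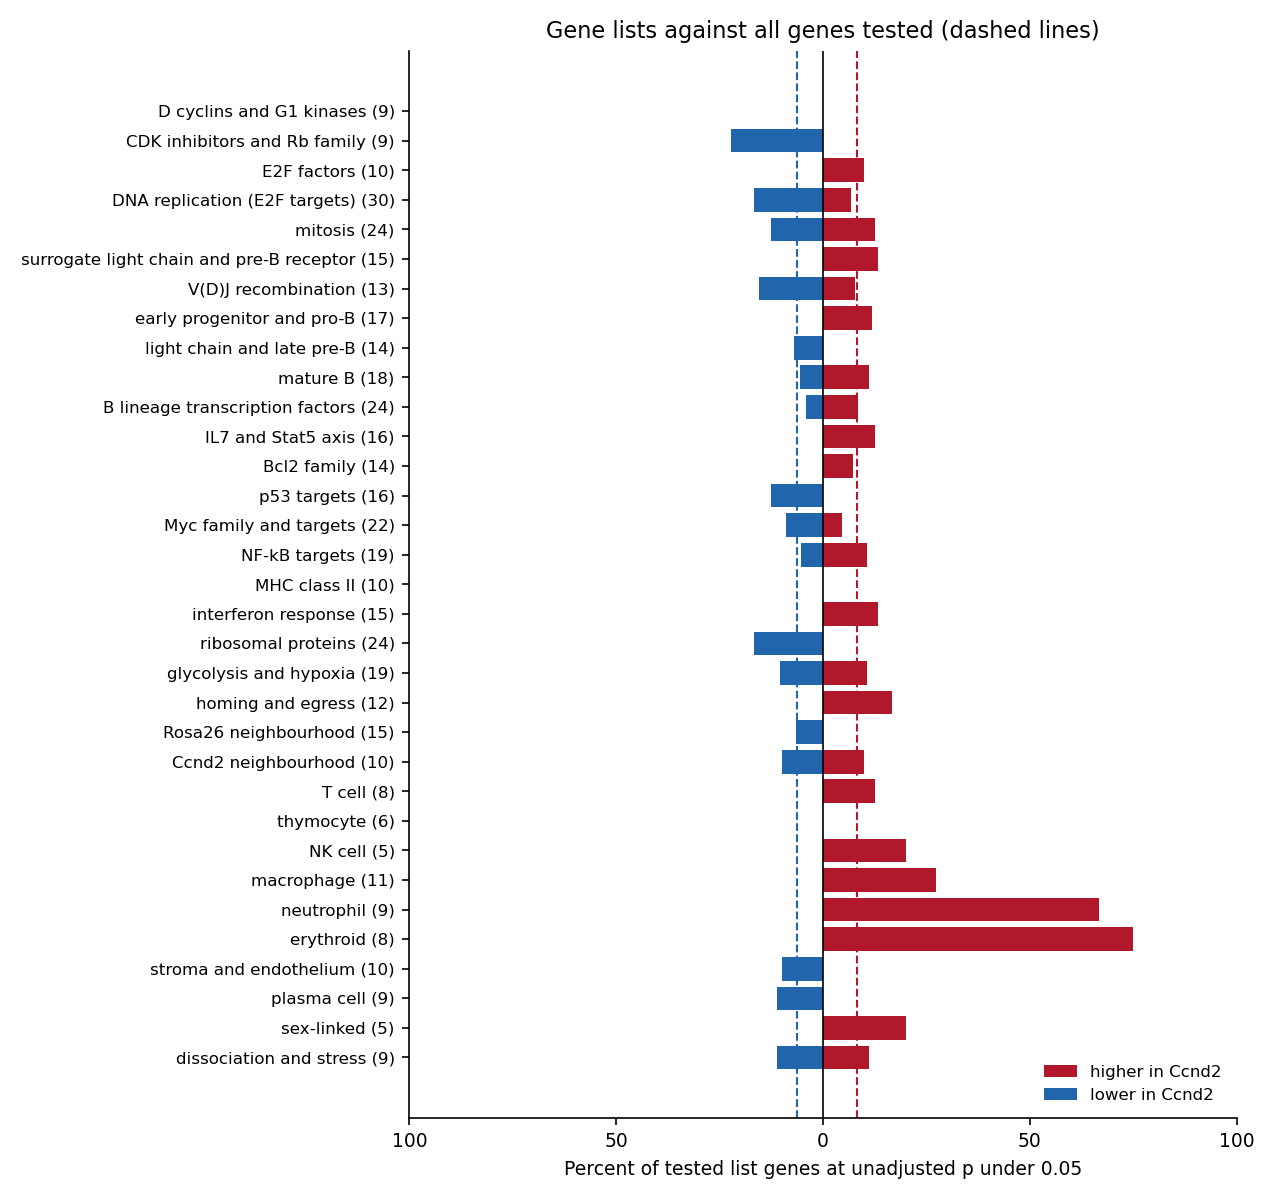
Percent of the tested genes of each list at an unadjusted p under 0.05, higher (red, right) or lower (blue, left) in Ccnd2 tumours; numbers tested are in brackets, and dashed lines mark all genes, 8.3% higher and 6.25% lower. Erythroid and neutrophil genes have the longest bars on the high side. CDK inhibitors, replication, ribosomal protein, V(D)J recombination, mitosis and p53 target genes, among other lists, lie past the dashed line on the low side.

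Erythroid and neutrophil genes had the highest median differences of the 35 lists. Of 8 erythroid genes tested, 6 were higher in Ccnd2 tumours at an unadjusted p under 0.05 and 0 lower. By that threshold 8.3% of all genes were higher and 6.25% lower. The tested erythroid genes had a median log2 difference of 4.17. Their summed unscaled CPM were 4452 in TP8, 32711 in TP15 and 19642 in oTP14, against 1656, 2823 and 1670 in oTP9, oTP11 and oTP17. The tumours labelled spleen, TP15 and oTP14, were the highest. Slc4a1, the anion exchanger of red cells, was at 7.95, 355 and 193 TMM-scaled CPM against 0, 1.22 and 2.03, and Hba-a1, an alpha globin gene with a near-identical copy, was at 1060, 11014 and 8494 against 15.0, 395 and 266. Among the mediastinal tumours the erythroid genes were also higher in the Ccnd2 one, TP8, than in oTP9. With mediastinal site as a covariate, edgeR called 6 genes: Slc4a1, Rsad2, Alas2, Hba-a2, Hba-a1 and Hbb-bt.

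Neutrophil genes were dominated by oTP14. Of 9 tested, 6 were higher and 0 lower, with a median of 3.68. For this list and those below, the threshold is an unadjusted p under 0.05, where 8.3% of all genes were higher and 6.25% lower. The summed unscaled CPM were 303, 241 and 4329 in TP8, TP15 and oTP14 against 24.2, 58.3 and 312. Ltf, lactoferrin of neutrophil granules, was at 5.17, 33.4 and 203 TMM-scaled CPM against 0, 0.608 and 2.76, while S100a8 and S100a9 overlapped through oTP17. Of 11 macrophage genes, 3 were higher, Csf1r, C1qa and Vcam1, and 0 lower. The macrophage sums were 1743, 676 and 635 against 339, 505 and 660, so those of TP15 and oTP14 lay next to that of oTP17, unlike Csf1r, named above. T cell sums were 74.3, 310 and 182 against 84.6, 78.4 and 261 over 16 genes, with Thy1 the 1 higher of 8 tested (log2 difference 3.04, or 0.91 without TP15). Of 5 NK genes 1 was higher (Klrb1c). Stroma held 1 lower gene, Col3a1, at 13.1, 1.55 and 0.628 against 30.9, 21.5 and 27.8. Foxn1, which defines thymic epithelium, was at 0 in all 6, the thymoma oTP11 included. It was the only 1 of 11 thymic epithelium genes with no counts in them. The list summed to 37.3 unscaled CPM in oTP11, and Ly75, another member, was at 22.3 there on the TMM scale. In bulk RNA, more cells of a type and more RNA per cell cannot be told apart. The part of these cells in the differences above was not tested.

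The tumours also differed in sex-linked RNA. Xist, the X-inactivation RNA, was at 3402 unscaled CPM in TP15 and 345 in oTP14 and at most 3.6 in the other 4. Ddx3y, from the Y chromosome, was at 0 and 0.123 in TP15 and oTP14 and at 103 in TP8, 280 in oTP9, 51.7 in oTP11 and 80.0 in oTP17. By these genes TP15 and oTP14 were the only tumours with Xist and without Y-linked RNA. The part of sex in the other differences was not tested.

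The name prefix was followed through a measure outside the lists and through a mouse sampled under both names. Counts from mitochondrial genes took 5.88% of TP8, 7.61% of TP15 and 2.31% of oTP14, and 2.25% to 2.37% of the p53-only tumours. Over the series the 5 oTP libraries ran from 2.25% to 3.44% (median 2.31%) and the 17 TP libraries from 4.11% to 10.4% (median 6.64%), with no overlap. oTP14 fell with the oTP libraries. mt-Nd3, a subunit of respiratory complex I, cut across this order: oTP14 was at 7.98 unscaled CPM, within the 0.743 to 12.3 of the TP libraries, and the 4 p53-only oTP libraries were at 82.1 to 115.

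TP21, labelled spleen, and oTP10, labelled only lymphoma, are p53-only libraries of the same mouse, neither of them among the 6 tumours. Over all genes tested, 50.2% were higher in TP21. Of the 975 genes on the high side in Ccnd2 tumours, 759 (77.8%) were higher in TP21 than in oTP10, with a median log2 difference of 0.78. Of the 734 on the low side, 622 (84.7%) were lower in TP21, with a median of -0.70. Most of these genes thus differed in the same direction between a TP and an oTP library that share a genotype. The pair also differs in site label, so prefix and site cannot be told apart in it. With the prefix as a covariate 0 genes were called and 1098 were at an unadjusted p under 0.05, 729 higher and 369 lower.

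Individual genes fell on both sides of this. Slc4a1 was higher in TP21 than in oTP10 by 7.42 on the log2 scale, Rsad2 by 3.41 and Mki67 by 1.53, and the TP21 minus oTP10 difference was -3.92 for mt-Nd3 and -3.66 for Rps6. Bcl2 lay the opposite way, at -0.52, and Pou2f2 and Bach2 were close to even, at 0.30 and 0.10. Gga2 (-0.15), Gramd1b (-0.06), Plekhm2 (-0.19), Spinkl (0.10) and Adprh (0.02) were also close to even in the pair, while Gda (2.35), Fcrla (-2.21) and Senp3 (-1.55) followed their direction in the comparison. The pair's difference was -0.81 for Gt(ROSA)26Sor. What the prefix stands for cannot be told apart from genotype in TP8 and TP15. oTP14 is the 1 transgenic tumour that shares a prefix with the p53-only tumours.

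**Figure D4:**
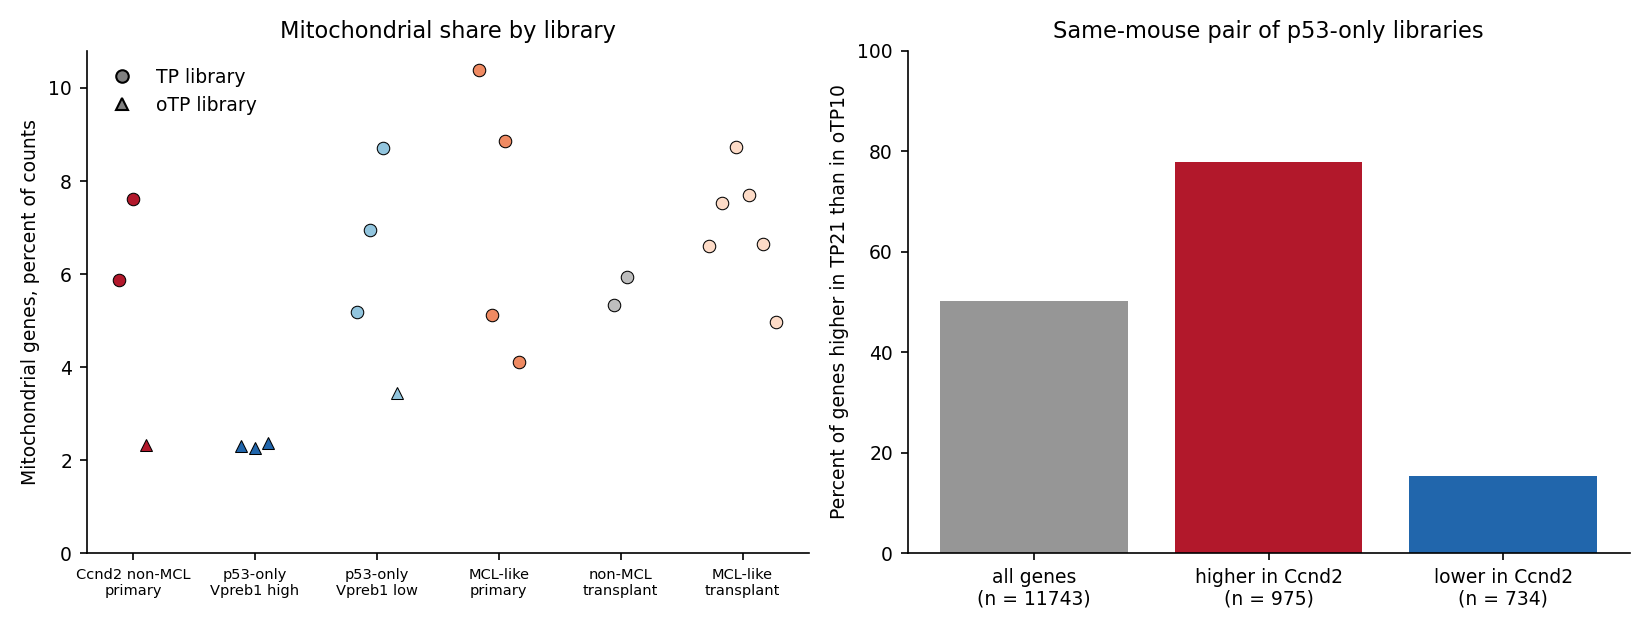
Left, percent of counts from mitochondrial genes in each of the 22 libraries by group, with circles for TP and triangles for oTP names. Right, percent of genes higher in TP21 than in oTP10, libraries of the same p53-only mouse, over all genes (50.2%), genes on the high side (77.8%) and genes on the low side (15.3%) in Ccnd2 tumours. The bars are shares of genes without replicates, and the pair also differs in site label.

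The balance of higher and lower genes differed by chromosome. Of 843 genes tested on chromosome 7, 148 were higher and 12 lower in Ccnd2 tumours at an unadjusted p under 0.05 (19.0%). Chromosome 9 had 90 higher and 15 lower of 667 tested (15.7%), and chromosome 14 had 52 and 8 of 384 (15.6%). The reverse held on chromosome 11, with 46 higher and 107 lower of 954 (16%), and on chromosome 16, with 9 and 57 of 371 (17.8%). Among all genes 8.3% were higher and 6.25% lower, 14.6% in all. These chromosomes thus differed from all genes more in direction than in total. For each library the median deviation per chromosome was taken over 8164 genes with a mean of at least 10 TMM-scaled CPM in both groups. The deviation was log2(unscaled CPM + 1) minus the median of the 14 primary libraries. Each library's own median deviation was then subtracted, so the values are relative to that library's other genes.

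On chromosome 7 the p53-only tumours stood apart, at -0.38 in oTP9, -0.29 in oTP11 and -0.35 in oTP17, while TP8, TP15 and oTP14 were at -0.04, 0.15 and 0.01. The other 8 primaries were at -0.03 to 0.30, the oTP library oTP10 at 0.14. On chromosome 11 the p53-only tumours were at 0.24, 0.25 and 0.28 and the Ccnd2 tumours between -0.13 and 0.08, within or near the -0.18 to 0.05 of the other primaries. The groups did not overlap on 5 of 20 chromosomes, 3, 7, 11, 16 and 18. Both groups were high on chromosome 5, at 0.07 to 0.55 in all 6 tumours against -0.37 to -0.03 in the other 8 primaries. Single tumours stood out elsewhere: TP8 at 0.50 on chromosome 9, oTP14 at 0.48 on chromosome 15 and oTP9 at 0.52 on chromosome 16. DNA copy number was not measured here, and its part in these medians was not tested.

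**Figure D5:**
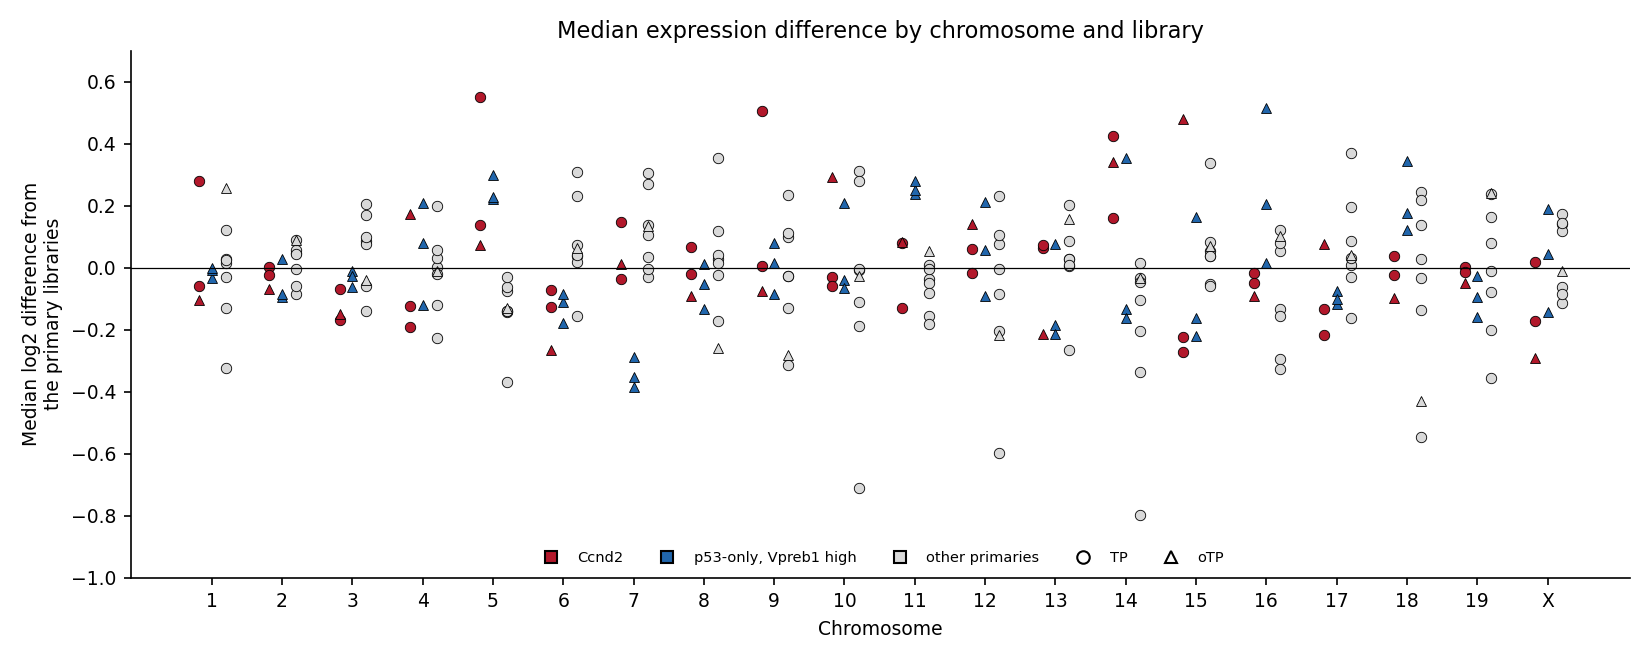
Median log2 difference from the primary libraries per chromosome, for the 3 Ccnd2 tumours (red), the 3 p53-only tumours with high Vpreb1 (blue) and the 8 other primaries (grey). Each library's own median was subtracted first. Each point is a library, circles TP and triangles oTP. The blue triangles lie at -0.38 to -0.29 on chromosome 7 and at 0.24 to 0.28 on chromosome 11, apart from the red points, and on chromosome 5 all 6 coloured points lie above the grey ones.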

How the data were processed

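RNA from fresh lymphoma cells was made into QuantSeq 3′ libraries, which sequence from the 3′ end of messenger RNA, per the labels' protocols. The authors deposited raw read counts per Ensembl gene for 22 libraries; FastQC, STAR and GRCm38 are named per the submitters' processing notes, and the versions, counter, strand setting and annotation were not given in the sources used here. Without strand, reads of a gene and its antisense partner cannot be told apart. GENCODE M21 names matched 52489 of 52636 identifiers. Groups came from genotype and immunophenotype labels. The count column named oTP14 has oTP14b in its title.

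The 6 libraries were fitted with edgeR 4.0.16 in R 4.3.3: TMM scaling, filterByExpr at its defaults, quasi-likelihood F test with robust shrinkage, Benjamini-Hochberg over all genes tested, threshold 0.05. Limma 3.58.1 and DESeq2 1.42.0 were alternatives, and steps were tested on simulated data. Each library was a separate mouse, so p-values measure the spread between mice. Members, 35 gene lists (1 of them key genes) and named genes were chosen with earlier results of these data known. Named were the key genes, the 10 per direction with the lowest p, at least 10 TMM-scaled CPM in the higher group, no overlap and an ordinary symbol, and the lowest-p member of each list; other list members were named after their values were seen. Results of a few genes are not reported here.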

Additional observations from a re-analysis of the deposited data

Results flagged for a closer look

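Among 4 MCL-like primaries, which are outside the 6 tumours compared, TP20 stood far from the others for Gt(ROSA)26Sor, at 35.2 unscaled CPM with the next library at 1.05. This level is that of the p53-only tumours, although the label gives TP20 the transgene. In the same group TP19 stood apart for mt-Nd3, at 12.3 unscaled CPM with the next at 2.38. Of 12 combinations of a measure and a group examined this way, chance would flag about 1 in 20 for normally distributed values. The combinations share libraries.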

How the results depend on the processing

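Calls at an adjusted p under 0.05 numbered 0 in the comparison and 0 with library-size scaling, limma-voom, the prefix as a covariate, all 13 primary mice, all 6 p53-only mice and a Vpreb1 threshold of 1000. They numbered 482 with DESeq2, 658 without a low-count filter, 21 in oTP libraries only and 6 with mediastinal site as a covariate. Leaving out each library in turn gave 0 to 7. Counts at an unadjusted p under 0.05, 1709 in the comparison, were 3258 without a filter, 1098 with the prefix as a covariate, 2587 with all 13 primary mice, 1061 with all 6 p53-only mice and 1113 with the threshold of 1000, which drops oTP11. Leaving out each library gave 1095 to 2620. With all 6 p53-only mice the log2 differences of Lifr, Mki67 and Pou2f2 turned to -0.251, -0.123 and -0.0617. Jchain ranged from -4.06 to 0.11 when each library was left out. DESeq2 gave no adjusted p to 282 genes. The cause of these changes was not tested, except that fits with other libraries or filters test other genes. No paired analysis was possible because the replicate numbers were given in accession order and pair no mice. With 3 mice a group and 2693399 to 8146613 counts each, genes of a few counts carry wide counting error.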
